A study of Sordaria macrospora with 16 samples.

Results

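Long H3 peaks, defined as histone H3 peaks of at least 5 kb, were analysed in mycelium of the filamentous ascomycete *Sordaria macrospora*. The members were chosen by the measured length of the peaks themselves. Of 23612 peaks in the 4 H3 lists, 531 reached this length, after peaks of the rRNA gene array at the right end of chromosome 2 had been left out. Chromatin immunoprecipitation and sequencing had been done with an antibody against H3 and with one against H3 trimethylated at lysine 27 (H3K27me3), in 2 biological replicates per strain and antibody. The strains were the wild type, grown for 2 days, and delta-asf1 (Δasf1), a deletion mutant of the histone chaperone gene *asf1*, grown for 3 days. Cultures were kept in constant light at 27°C in liquid complete medium, and fixed chromatin was cut with micrococcal nuclease (230 U per ml, 105 min, 37°C). Growth time differed together with the strain, so the effects of the pair cannot be told apart. According to the study, Δasf1 strains also carry a large chromosomal duplication, made of a pair of stretches with an unduplicated part between them. Each library was deposited as a list of broad peaks without read counts, so sequencing depth is unknown.

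Histone H3 is part of every nucleosome, and peaks of H3 mark stretches where nucleosomal DNA was recovered more often than in the surroundings. Micrococcal nuclease cuts between nucleosomes, so such stretches depend on occupancy as well as on digestion. H3K27me3 is set by Polycomb-type methyltransferases and is known in fungi for silenced chromatin, often in blocks near chromosome ends. ASF1 hands H3-H4 dimers to other factors when nucleosomes are built or taken apart.

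The number of long peaks differed more between replicates than between strains. Wild type replicate 1 had 51 long peaks, wild type replicate 2 had 310, Δasf1 replicate 1 had 138 and Δasf1 replicate 2 had 32. The highest and the lowest count were thus both in replicate 2, one in each strain. Long peaks made up 0.802%, 4.76%, 2.17% and 0.728% of the peaks of these lists, in the same order, and 3.95%, 16.7%, 9.39% and 3.32% of their covered length. The ratio of Δasf1 to the wild type was 0.471 over all lists, 2.71 within replicate 1 and 0.103 within replicate 2. Without wild type replicate 2 it was 1.67, so that 1 library set its direction. Since length chose the members, no test was made on these counts.

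**Figure D1:**
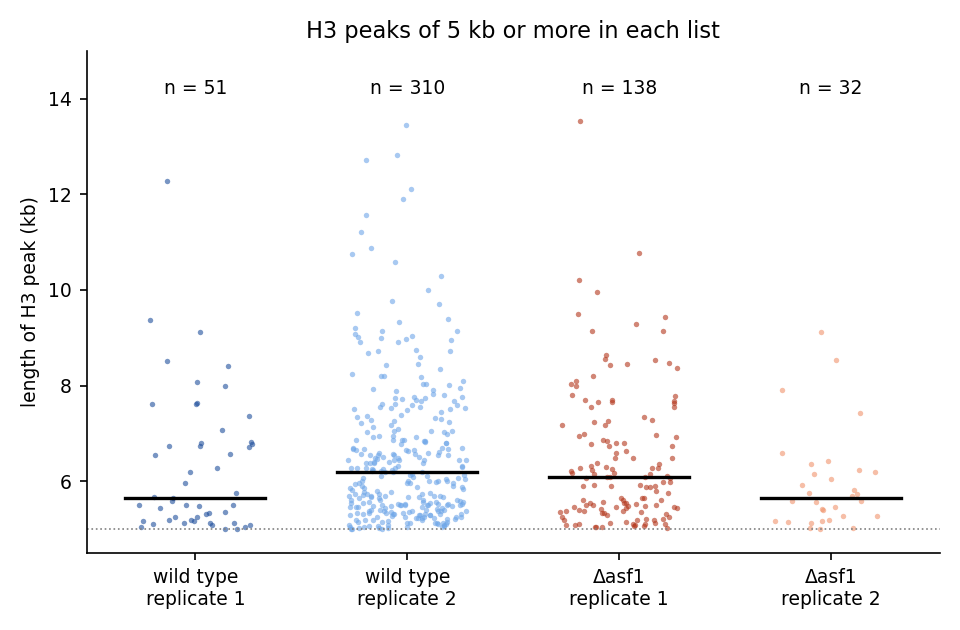
Length in kb of each H3 peak of at least 5 kb (points) in the 4 H3 lists, with the median as a black line and the threshold dotted. Wild type replicate 2 holds 310 of the 531 peaks, and medians lie between 5645.5 and 6189.5 bp.

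Long peaks lay close to the threshold in every list. Their median length was 5648 bp in wild type replicate 1, 6189.5 bp in wild type replicate 2, 6094.5 bp in Δasf1 replicate 1 and 5645.5 bp in Δasf1 replicate 2. The longest peaks had 12278, 13438, 13529 and 9120 bp. Only 16 peaks reached 10 kb, 12 of them in wild type replicate 2. The members nearest to the threshold measured 5006, 5003, 5033 and 5001 bp, and the peaks just below it 4999, 4997, 4988 and 4973 bp. Lengths therefore ran through the threshold without a gap. Enrichment was low: the median fold enrichment over the background of the peak caller was 1.31 to 1.43 in long peaks and 1.28 to 1.41 in shorter peaks of the same lists. Long peaks were broad, but hardly higher than the others. Each peak's fold enrichment and p-value together imply a background, in units of the caller, whose list medians were 116 and 142 in the wild type against 142 and 96.6 in Δasf1. The lists with more implied background had more long peaks, and its part in their number was not tested. The smallest −log10 q was 2.05 in both replicate 1 lists and 1.03 and 1.02 in the replicate 2 lists, so the lists of replicate 1 were cut more strictly than those of replicate 2 in either strain.

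Most places with a long peak had one in a single list. After merging overlapping long peaks, 410 regions of 5014 to 15532 bp (median 6265 bp) remained, which covered 2.76 Mb or 7.0% of the 39.4-Mb genome. A long peak was present in 1 list in 316 regions (77.1%), in 2 lists in 72 (17.6%), in 3 lists in 19 and in all 4 lists in 3. Wild type replicate 2 alone accounted for 226 regions. In all, 253 regions had long peaks only in the wild type, 79 only in Δasf1 and 78 in both strains. Long peaks of both wild-type replicates met in 29 regions and those of both Δasf1 replicates in 12. Regions with long peaks in both replicates of one strain and none in the other numbered 14 for the wild type and 2 for Δasf1.

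**Figure D2:**
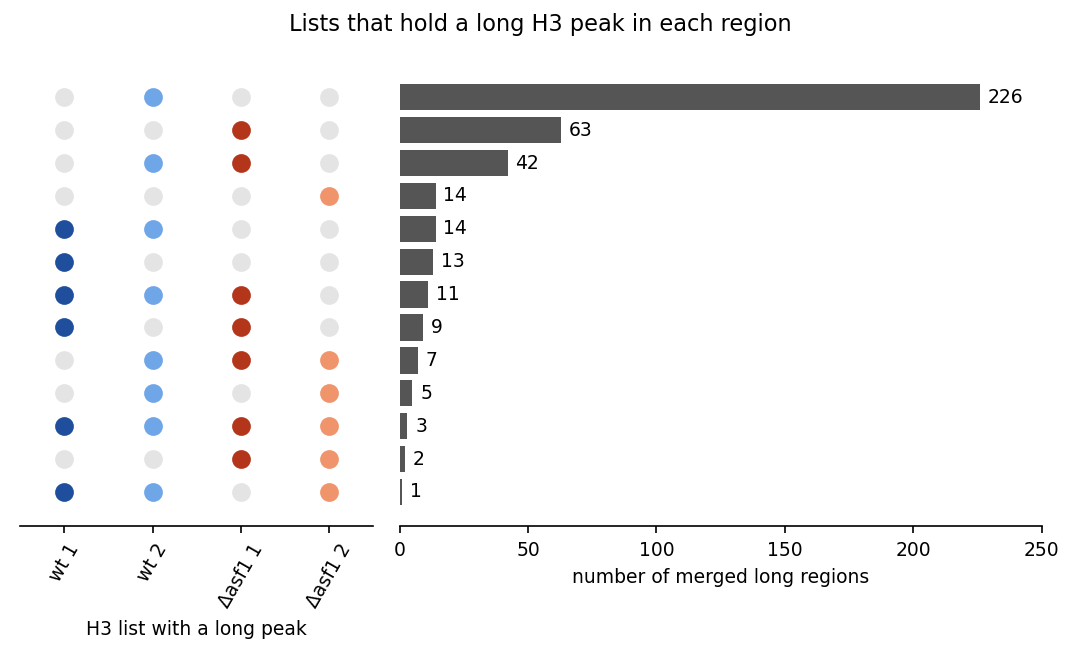
Number of merged long regions (bars) for each combination of H3 lists with a long peak (coloured dots; wt, wild type; 1 and 2, replicates). The largest group, 226 of 410 regions, has a long peak in wild type replicate 2 only.

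Recurrence was counted against long peaks and against peaks of any length of another list. Peaks of any length include the long ones, so the second share cannot be the lower. Shorter peaks were compared by pairs of lists only. Of the 531 long peaks, 199 (37.5%) were covered to at least 50% by a long peak of another list, whereas 453 (85.3%) were covered to this extent by peaks of any length of another list. Long peaks of wild type replicate 1 had a long counterpart elsewhere in 74.5% of cases, those of Δasf1 replicate 2 in 53.1%, those of Δasf1 replicate 1 in 48.6% and those of wild type replicate 2 in 24.8%. The list with the most long peaks thus had the lowest share. Peaks of any length in each of the 3 other lists covered at least 50% of 113 long peaks (21.3%), and 1 long peak, in wild type replicate 2, had no base in any other list. A long peak of one list was often broken up in another: of the 310 long peaks of wild type replicate 2, 220 (71.0%) met 2 or more peaks of wild type replicate 1, and up to 5. Compared with shorter peaks, recurrence of long peaks was higher in some pairs of lists and nearly equal in others. For example, 88.2% of the long peaks of wild type replicate 1 and 73.2% of its shorter peaks were covered to at least 50% in wild type replicate 2, and 33.3% and 34.9% of those of Δasf1 replicate 1 in Δasf1 replicate 2.

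The 3 regions with a long peak in all 4 lists differed in position and in H3K27me3. The first, chr3:5706780-5713642, lay 0.217 kb from the right end of chromosome 3 and held SMAC4_13575 to SMAC4_13577. Its long H3 peaks had 6544 and 6157 bp in the wild type against 5913 and 6419 bp in Δasf1, a narrow range. H3K27me3 cover of it was 99.8% and 100% in the wild type against 61.2% and 77.4% in Δasf1. The second, chr1:8446999-8455480, held SMAC4_00573 to SMAC4_00576. H3K27me3 cover there was 65.8% and 54.5% in the wild type against 82.7% and 83.6% in Δasf1, so the order of the strains was the opposite of that in the first region. The third, chr4:3298260-3310221, held SMAC4_00151 to SMAC4_00154. Its long H3 peaks ranged from 5417 bp (Δasf1 replicate 2) to 11903 bp (wild type replicate 2). H3K27me3 cover was 53.3% and 0% in the wild type against 73.3% and 66.7% in Δasf1.

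Of the 19 regions with a long peak in 3 lists, 11 missed Δasf1 replicate 2, the list with the fewest long peaks. Those with the largest lengths throughout missed it in 4 of 5 cases. In chr4:2605909-2615397, with SMAC4_05345 to SMAC4_05347, the long peaks had 9374 and 9324 bp in the wild type against 9489 bp in Δasf1 replicate 1. H3K27me3 cover was 66.4% and 14.5% in the wild type against 100% and 85.8% in Δasf1. In chr1:1617198-1627962, with SMAC4_04933, SMAC4_04934, SMAC4_09691 and SMAC4_09692, H3K27me3 cover was 100% and 4.4% in the wild type against 99.8% and 63.3% in Δasf1. The wild-type replicates stood further apart here than the strains. The same held in chr1:8284013-8291167, which had no gene (the nearest was SMAC4_00528): H3K27me3 cover was 98.8% and 0% in the wild type against 96.0% and 98.8% in Δasf1. In chr4:463055-471237 a single gene of 6515 bp, SMAC4_08827, lay within the region, and cover was 62.0% and 11.1% in the wild type against 69.1% and 57.7% in Δasf1. The fifth region, chr2:867567-876865, had long peaks of 7700 bp in wild type replicate 2 and of 9281 and 7918 bp in Δasf1. It lies in the chromosome 2 window described further on.

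The longest peak of each list lay elsewhere. That of Δasf1 replicate 1 (13529 bp, chr4:2258693-2272221) fell wholly within 1 gene of 15370 bp, SMAC4_08888. In Δasf1 replicate 2, H3 peaks covered only 6.4% of the same stretch, against 67.3% and 54.1% in the wild-type lists. That of wild type replicate 2 (chr2:4977626-4991063, 13438 bp) spanned SMAC4_03236 to SMAC4_03240 and was met by 2 peaks in wild type replicate 1 and by 4 peaks in each Δasf1 list. The longest peak of wild type replicate 1 (12278 bp) lay in chr5:3863334-3878743, a region with 8 genes, of which SMAC4_08144, SMAC4_08142 and SMAC4_08146 were the longest. That of Δasf1 replicate 2 (9120 bp) lay in chr6:1764976-1774824 with SMAC4_06370, SMAC4_06372 and SMAC4_06373, where wild type replicate 2 had a long peak of 7542 bp.

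Long regions were found on all 7 chromosomes, at 7.96 regions per Mb on chromosome 6 to 13.4 on chromosome 2. Chromosome 2 without the window from 0.7 to 1.3 Mb, which holds the duplicated stretches, still had 12.4 per Mb. Genes made up 78.0% of their length, against 74.6% in 1419 other H3 regions of at least 3 kb and 58.2% of 5-kb windows of the genome. A region touched 2.57 genes on average, and 4 regions touched none. In 45 regions (11%) a single gene filled at least 80% of the length, which was the case in 5.83% of 5-kb windows and in 19.9% of other H3 regions of at least 3 kb. Genes of at least 5 kb were 95 of the 1045 protein-coding genes that touched a long region (9.09%) and 450 of all 10309 (4.37%). They were 158 of the 2508 that touched another H3 region of at least 3 kb (6.30%). Of genes of at least 5 kb, 16.7% lay with at least 50% of their length in a long region, compared with 4.93% to 9.23% of shorter length classes. A long region was thus mostly a run of gene bodies. Long genes made up a larger share of the genes touched than of all genes, and to a lesser degree also in other H3 regions of at least 3 kb. A longer gene can be touched by more intervals of any kind, and the part of this in the shares was not tested. Transfer RNA genes were seldom met, in 4 regions (0.976%) against 5.23% of the windows, and as seldom in other H3 regions of at least 3 kb (0.775%). These shares describe regions that length had chosen and were not tested.

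Within 100 kb of chromosome ends lay 11 regions and 2.82% of the long length. Of the 5-kb windows, 3.26% of the length lay this close to an end. The 11 regions were spread over 10 of the 14 chromosome ends, and 7 of them lay within 1 kb of the end. All 11 had a long peak in wild type replicate 2, but only 2 in each of the other lists. Without that library 3 of the 11 regions would remain.

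H3K27me3 peaks were then examined in the 410 regions, because these lists had no part in choosing them. The question was how far H3K27me3 peaks of each strain cover long H3 stretches. Median fold enrichment of H3K27me3 peaks of at least 5 kb was 1.41 and 1.53 in the wild type against 1.47 and 1.34 in Δasf1. In shorter H3K27me3 peaks it was 1.37 and 1.32 against 1.42 and 1.32, close to the range of the H3 lists. Cover was not set against H3 signal, so the part of nucleosome recovery in it was not tested. H3K27me3 peaks covered 45.2% and 22.6% of the long length in wild type replicates 1 and 2, and 58.2% and 55.9% in Δasf1 replicates 1 and 2. The groups did not overlap, but the wild-type replicates lay further apart (33.9% ± 16, SD, n = 2) than the Δasf1 replicates (57.1% ± 1.65, SD, n = 2). The difference was 0.84 on the log2 scale or 1.79-fold (two-sided exact permutation test of 4 libraries, p = 0.333, the smallest this design allows, so 0.05 cannot be reached). It was 1.29-fold within replicate 1 and 2.48-fold within replicate 2. In the 78 regions with long peaks in both strains, cover was 51.2% and 23.3% in the wild type (37.3% ± 19.8, SD) against 68.2% and 63.9% in Δasf1 (66.1% ± 3.05, SD), a difference of 0.93 on the log2 scale (exact permutation p = 0.333). Ratios within replicates 1 and 2 were 1.33 and 2.75. Without wild type replicate 2 of H3K27me3 the log2 differences were 0.34 and 0.37. At a common q-value cutoff cover was 48.3% and 14% in the wild type against 61.0% and 35.2% in Δasf1, so that the groups overlapped (exact permutation p = 0.667). They also overlapped in the 16 regions with a peak of at least 10 kb, at 56.2% and 25.2% against 68.7% and 56.1% (exact permutation p = 0.667).

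**Figure D3:**
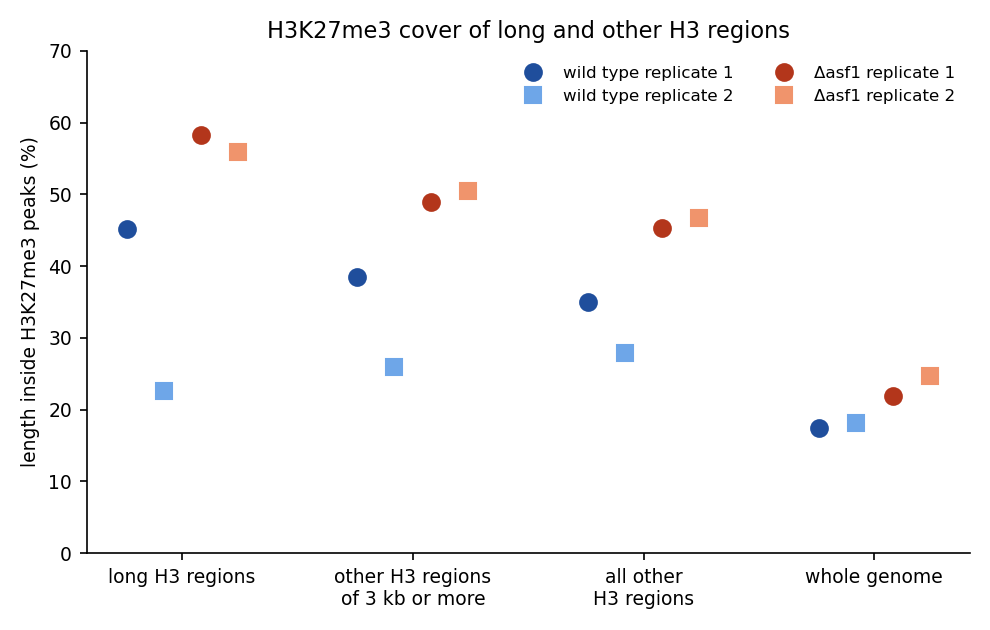
Percent of length inside H3K27me3 peaks for each H3K27me3 library (circles, replicate 1; squares, replicate 2; blue, wild type; red, Δasf1) in the 410 long H3 regions, in other H3 regions and in the whole genome. Long regions are the most covered class in 3 libraries and not in wild type replicate 2, where they have 22.6%.

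Other H3 regions were less covered than the long ones in 3 of 4 libraries. Cover of the 7310 other H3 regions was 35% and 27.9% in the wild type against 45.3% and 46.7% in Δasf1. Long regions were therefore covered 1.29 times as much as the others in wild type replicate 1, 0.808 times in wild type replicate 2, and 1.29 and 1.20 times in Δasf1. The strain difference in this ratio was 0.28 on the log2 scale (exact permutation p = 1), −0.0046 within replicate 1 and 0.57 within replicate 2. Without wild type replicate 2 of H3K27me3 it was −0.057. A larger strain difference in long regions than in other H3 regions was thus not shown. Against the genome, of which H3K27me3 peaks covered 17.4%, 18.1%, 21.9% and 24.7%, cover of long regions was 2.59 and 1.25 times as high in the wild-type libraries, and 2.65 and 2.26 times as high in the Δasf1 libraries.

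Wild type replicate 2 stood apart in how the mark was distributed. It had no H3K27me3 peak in 109 long regions (26.6%), against 23 in wild type replicate 1 and 5 and 6 in Δasf1. Other H3 regions of at least 3 kb had none more often in each library (31.3%, 17.4%, 8.03% and 8.39%, in the same order). Among all other H3 regions the share in wild type replicate 2 was 49.6%. In wild type replicate 2 the median long region was covered to 16.1%, in the other libraries to 43.4%, 58.3% and 56.2%. Conversely, this library had long H3K27me3 peaks: 27.1% of its covered length was in peaks of at least 5 kb, against 7.99% to 9.82% in the other 3 lists. Yet only 22 of its 144 such peaks touched a long H3 region (15.3%, against 49.5% to 72.5%). In all 4 libraries cover was higher at the centre of long regions than beyond 10 kb: 43.7% against 17.0% and 21.7% against 14.8% in the wild type, and 56.8% against 23.3% and 57.1% against 27.2% in Δasf1. Genes, too, covered more of the centre (77.6%) than of the flanks (59.3%).

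**Figure D4:**
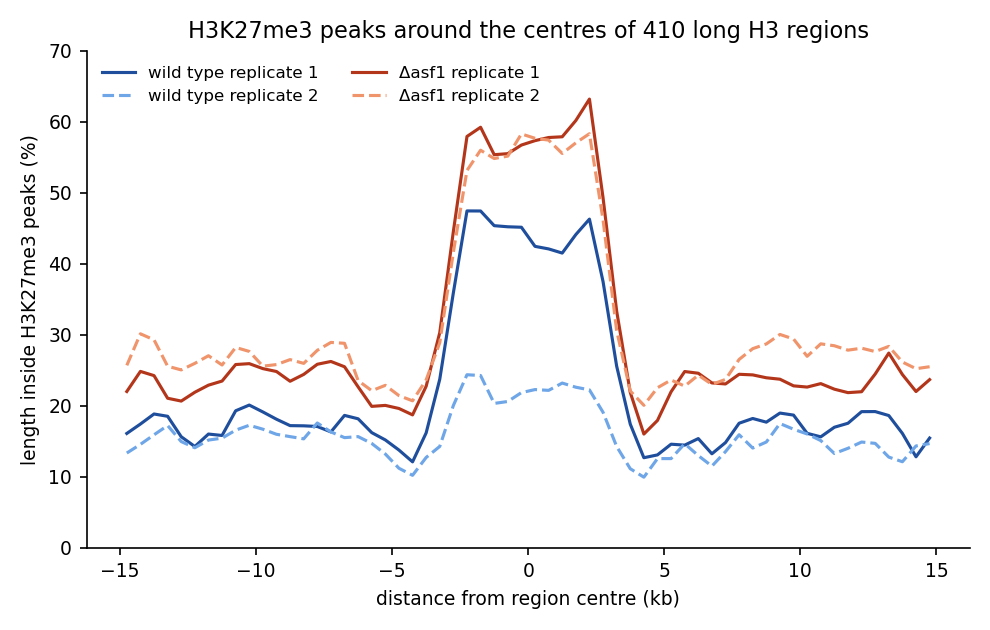
Percent of 500-bp bins inside H3K27me3 peaks, averaged over 410 long H3 regions, by distance from the region centre in kb, for each H3K27me3 library. The plateau over the regions reaches 56.8% and 57.1% at the centre in Δasf1 and 21.7% in wild type replicate 2.

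Cover was higher in more recurrent regions in 3 of the 4 libraries. Regions with long peaks in 1 list had H3K27me3 cover of 32.3% ± 14.6 in the wild type against 54.0% ± 1.22 in Δasf1, those in 2 lists 34.8% ± 19.4 and 63.1% ± 3.17, and the 22 regions in 3 or 4 lists 48.6% ± 21.2 and 72.1% ± 1.78 (SD, n = 2 each). In wild type replicate 2, cover was 22.0%, 21.1% and 33.6% in these classes, with medians per region of 16%, 15.9% and 16.8%, and 3 of the 22 regions of the last class were fully covered. Length within the long class did not order the values in this way: regions of 5 to 6 kb, 6 to 8 kb and at least 8 kb had 59.4%, 54.7% and 62.1% in Δasf1 replicate 1 and 45.3%, 44.0% and 47.0% in wild type replicate 1.

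Counted by region, both Δasf1 libraries had more H3K27me3 cover than both wild-type libraries in 211 of 410 long regions (51.5%), and both wild-type libraries had more in 27 (6.59%). In the other 172 regions the strains overlapped. Among the 7310 other H3 regions the same rule called 23.9% for Δasf1 and 8.03% for the wild type. Among the 1419 of these with at least 3 kb it called 36.9% and 8.17%, and among 5-kb windows of the genome 28.9% and 9.29%. At this setting the share of long regions with more cover in Δasf1 was above all 3 backgrounds, and the share with more cover in the wild type was slightly below them. Other H3 regions were mostly shorter and more often without any H3K27me3 peak, in all 4 libraries. In Δasf1 replicate 1 these were 35.2% of them and 8.03% of those of at least 3 kb, against 1.22% of long regions. No H3 background of the same length was made, so the part of length in these shares was not tested. A rule on mean cover was not counted in the backgrounds, where both Δasf1 lists also covered more length than both wild-type lists. By this rule the mean of the Δasf1 replicates exceeded that of the wild type in 356 long regions (86.8%). Regions with long peaks only in the wild type were no exception: 118 of 253 had more cover in Δasf1 and 23 in the wild type. At the common q-value cutoff 91 of 335 regions (27.2%) were called for Δasf1, against 14.4% of other H3 regions, 23.4% of those of at least 3 kb and 16.3% of windows. The wild type then had 23 regions (6.87%), against 7.64%, 6.73% and 9.37%. Without wild type replicate 2 of H3 the counts were 107 and 8, of 185 (57.8% and 4.32%, against 41.0% and 6.86% of other H3 regions of at least 3 kb). Leaving out H3K27me3 libraries moved them too: the wild-type count was 72 (17.6%) without wild type replicate 2 and 41 (10%) without Δasf1 replicate 2, and the Δasf1 count was 333 (81.2%) without wild type replicate 1. Among other H3 regions of at least 3 kb the same settings gave 19.7%, 15.0% and 61.1%.

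The largest leads of Δasf1 were found in 3 regions. In chr2:1062369-1067411, in the part between the duplicated stretches of chromosome 2, H3K27me3 covered 99.6% and 83.4% in Δasf1 against 0% and 25.6% in the wild type. It holds only the short gene SMAC4_07826. Implied background of H3K27me3 peaks in this region, relative to the list median, was 0.72 (log2) in Δasf1 replicate 1 and −0.034 in Δasf1 replicate 2. In chr3:1045779-1051286, with SMAC4_01761 to SMAC4_01763, cover was 76.4% and 63.5% in Δasf1 against 0% and 9.0% in the wild type. In chr4:2794113-2803706, with SMAC4_07099 to SMAC4_07101, it was 74.2% and 99.4% against 20% and 10.4%. The leads in these regions were 57.8, 54.5 and 54.2 percentage points from the lower Δasf1 to the higher wild-type library.

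Near chromosome ends the order was reversed. All 11 long regions there had more H3K27me3 cover in both wild-type libraries, against 46.2% of 260 5-kb windows and 47.8% of 161 other H3 regions at the same distance. Cover of the 11 regions was 94.1% and 100% in the wild type (97.1% ± 4.16, SD, n = 2) against 25.9% and 62.0% in Δasf1 (44.0% ± 25.5, SD, n = 2). The difference was −1.27 on the log2 scale, −1.86 within replicate 1 and −0.69 within replicate 2. As all 11 regions were members through wild type replicate 2 of H3, and 8 through that list alone, these values are a description and were not tested. Wild type replicate 2, which covered long regions least elsewhere (20.3%), covered each of the 11 completely. The lead of the wild type was largest, at 76.0 percentage points, in chr2:16564-27779, with SMAC4_13177 to SMAC4_13179, where H3K27me3 covered 98.9% and 100% in the wild type against 17.5% and 22.9% in Δasf1. In chr3:41207-46859, with SMAC4_13418 to SMAC4_13420, H3K27me3 cover was 71.1% and 100% against 20.4% and 21.9%.

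Away from the ends, 16 of 399 long regions (4.01%) had more cover in both wild-type libraries, a lower share than in other H3 regions (7.13%) and 5-kb windows (8.03%) away from the ends. The region with the largest lead was chr1:2813697-2823704, with SMAC4_13050 to SMAC4_13053, where cover was 99.6% and 100% in the wild type against 47.5% and 25.2% in Δasf1, although long H3 peaks were present in both Δasf1 lists (5080 and 5166 bp). Many genes, though not all, in the regions with more wild-type cover lacked an older locus tag. Of 67 protein-coding genes that touched them, 40 (59.7%) had no older locus tag in the gene table, compared with 13 of 551 (2.36%) in the regions with more Δasf1 cover and 723 of 10309 (7.01%) in the gene table. Near ends such genes were frequent anyway (31.7% of genes within 100 kb). In the 16 regions away from the ends their share was 46.5%, 20 of 43 genes. This share was not counted in other H3 regions with more wild-type cover. Gene content differed as well, with a median of 56.1% of region length in genes where the wild type had more cover and 83.9% where Δasf1 had more.

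**Figure D5:**
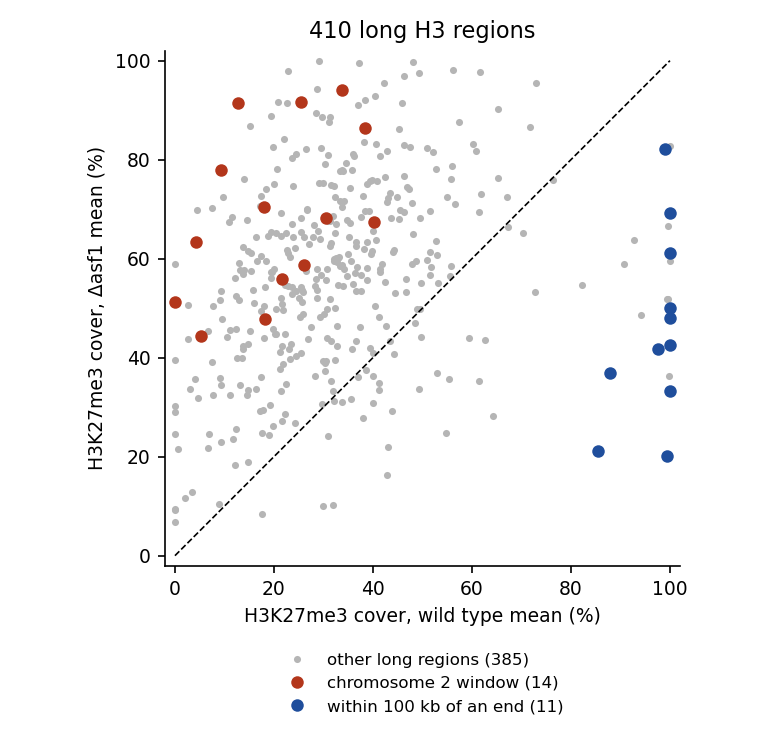
Mean H3K27me3 cover in percent of the 2 wild-type (x axis) and the 2 Δasf1 libraries (y axis) in each of 410 long H3 regions, with equality dashed. The 11 regions near chromosome ends lie below the line with wild-type means of at least 85.5%, and the 14 regions of the chromosome 2 window lie above it with wild-type means of at most 40.1%.

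Long regions with less than 50% of their length in genes were few (28, or 6.83%, against 35% of 5-kb windows). Their H3K27me3 cover was 52.1% and 49.0% in the wild type against 37.0% and 51.3% in Δasf1, whereas the 382 gene-rich regions had 44.7% and 20.8% against 59.7% and 56.2%. Of the 28 regions, 10 (35.7%) had more cover in the wild type and another 8 (28.6%) had more in Δasf1. Of gene-poor other H3 regions these shares were 13.6% and 11.9%, and of gene-poor 5-kb windows 14.8% and 17.9%. Without those near chromosome ends, 22 gene-poor regions remained, with 39.3% and 33.2% in the wild type against 41.6% and 46.2% in Δasf1. There 4 regions (18.2%) had more cover in the wild type, compared with 8 (36.4%) in Δasf1. The shares away from the ends were 11.8% and 12.3% of gene-poor other H3 regions and 12.8% and 18.7% of gene-poor windows.

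In the chromosome 2 window from 0.7 to 1.3 Mb long H3 peaks belonged mostly to Δasf1. The window spans the stretches that the study reports as duplicated and the part between them that it reports as not duplicated. Implied background in that part differed between the Δasf1 replicates, as given below. It had been picked for its excess of Δasf1 peaks in these same lists, so the strain difference in it is a description. It makes up 1.52% of the genome and held 10 of the 138 long peaks of Δasf1 replicate 1 (7.25%), 6 of the 32 of replicate 2 (18.8%), none of wild type replicate 1 and 5 of wild type replicate 2 (1.61%). Merging gave 14 regions, of which 13 had more H3K27me3 cover in both Δasf1 libraries, against 65.0% of the 120 5-kb windows there. H3K27me3 covered 26.8% and 15.0% of them in the wild type against 74.6% and 66.7% in Δasf1. The implied background of the long H3 peaks there was raised over the list median by 0.88 and 1.03 on the log2 scale in Δasf1, and by 0.05 in wild type replicate 2.

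In 10 of these regions at least 1 gene was on the gene list of the duplication. Their genes include those for a dihydroorotase and a dihydroorotate dehydrogenase (SMAC4_05564 and SMAC4_05569), both enzymes of pyrimidine synthesis, for the DNA replication checkpoint mediator MRC1 (SMAC4_05566) and for autophagy-related protein 2 (SMAC4_05551). Others encode a gamma tubulin complex component (SMAC4_05568) and a nucleoside diphosphate kinase (SMAC4_04392), which balances nucleotide pools. In these 10 regions each Δasf1 list had 6 long H3 peaks, and implied background of H3 peaks was raised in both, with medians of 0.88 and 0.96 (log2). H3K27me3 covered 65.8% and 73.1% of them in Δasf1 against 32.1% and 13.2% in the wild type. The highest mean cover was in chr2:737145-744955, with SMAC4_05558 and SMAC4_05559, with at least 88.2% in both Δasf1 libraries against 53.2% and 14.4%. In chr2:764608-773239, which holds the dihydroorotase and MRC1 genes, it was 83.7% and 99.4% against 38.9% and 12.0%.

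The other 4 regions, between 953408 and 1067411, hold no gene of that list, lie between its genes and separated the Δasf1 replicates. They touch SMAC4_07849 to SMAC4_07851, SMAC4_07833, SMAC4_07827, SMAC4_07828 and SMAC4_07826. All 4 had a long H3 peak in Δasf1 replicate 1 (5043 to 8374 bp) and none in Δasf1 replicate 2 or in the wild type. As they were members through Δasf1 replicate 1 of H3 alone, this describes their choice. Implied background of H3 peaks was raised by a median of 0.87 (log2) in Δasf1 replicate 1, whereas it was −0.06 in Δasf1 replicate 2 (over the 3 regions with an H3 peak there) and −0.05 and 0.0038 in the wild type. In the H3K27me3 lists it was 0.80 in Δasf1 replicate 1 and −0.015 in Δasf1 replicate 2. H3K27me3 covered 96.2% of these regions in Δasf1 replicate 1, 50.8% in Δasf1 replicate 2, and 13.5% and 19.5% in the wild type. Raised background and nearly full cover thus occurred together in the replicate whose long H3 peaks had chosen these regions. The part of the background in the long peaks and in the cover was not tested.

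Of the 410 long regions, 1 (chr7:1873505-1878609) was covered to less than 10% in all 4 H3K27me3 lists, with 0% in both wild-type libraries and 9.6% and 8.8% in Δasf1. Its long H3 peak, in Δasf1 replicate 1, runs over parts of SMAC4_00679 and SMAC4_00680. H3 cover of the region was 47.2% and 27.4% in the wild type, compared with 1.1% in Δasf1 replicate 2. Regions covered this little were not counted among other H3 regions or 5-kb windows.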

How the data were processed

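Reads had been trimmed with fastp, mapped with Bowtie2 and used for peak calling with MACS2, per the submitters' processing notes. Settings and the use of the input samples are not given in the sources used here. The authors deposited, for each peak, its position, a score, a fold enrichment (a ratio over the caller's background), plus a p-value and a q-value as −log10. Positions follow the assembly Sm_v04_wtN, counted from 1. Genes are locus tags of assembly ASM3387043v1. As assembly names differ, peaks were slid along the genes: the share of long-region length in genes was 78.0% without offset and 65.5% (median) at offsets of 3 to 5 kb. Cover is the percent of length inside merged peaks of a list. Implied background is the Poisson mean at which a deposited fold enrichment gives its p-value. It is not a read count.

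Strains were compared by two-sided exact permutation of log2 cover over 4 libraries. A region was called for a strain when both of its libraries exceeded both of the other. With only 2 replicates per group there are 6 assignments of the 4 libraries, so p cannot fall below 0.333. Such p-values reflect how the libraries are arranged and do not measure their spread. Regions named have a long peak in the most lists (8), hold the longest peak of a list, have the 3 largest H3K27me3 leads in either direction, are covered to less than 10% in all H3K27me3 lists, or lie in the chromosome 2 window. Members, gene lists and named regions were chosen with earlier results of these data known. Scripts were tested on simulated data. Alternatives were other minimum lengths, q-value cutoffs, joining of peaks, inclusion of the rRNA gene array, overlap rules, omission of single libraries and a replicate block. The 8 input samples were not used. Python 3.11.15, NumPy 2.4.6, pandas 2.3.3, SciPy 1.17.1 and matplotlib 3.10.9 were used.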

Additional observations from a re-analysis of the deposited data

Results flagged for a closer look

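The strains stood on opposite sides in 2 contrasts between classes of long H3 regions. In the chromosome 2 window, H3K27me3 cover relative to the other long regions was −0.78 and −0.61 (log2) in the wild-type libraries and 0.37 and 0.27 in Δasf1, so that the contrast was 1.01 higher in Δasf1. That window had been picked for its Δasf1 peaks, and 9 of its 14 regions were long only in Δasf1, so the difference was not tested. In regions with less than 50% of their length in genes, cover relative to the gene-rich long regions was 0.22 and 1.24 in the wild type against −0.69 and −0.13 in Δasf1, a difference of −1.14. Of these 28 regions, 6 lie near chromosome ends and were members through wild type replicate 2 of H3, so this difference was not tested either. Without the 6, cover of gene-poor regions in wild type replicate 1 was 39.3%, below the 44.7% of gene-rich regions. The wild-type libraries then no longer lay on the same side.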

How the results depend on the processing

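Mean H3K27me3 cover of long regions was higher in Δasf1 under all 18 alternatives, although single libraries of the strains overlapped at 10 kb and at the common q cutoff (log2 0.34 to 1.34, which is also the range when single libraries were left out), and likewise in regions long in both strains (14 alternatives, 0.37 to 1.5), which could not be formed at 10 kb. The difference relative to other H3 regions turned to −0.057 without wild type H3K27me3 replicate 2 and ranged from there to 0.62 when single libraries were left out. Counts of regions with more cover in the wild type (27) and in Δasf1 (211) became 101 and 649 with peaks of at least 3 kb, 2 and 10 with peaks of at least 10 kb, 4 and 94 with long peaks of the Δasf1 lists alone, and 16 and 75 with a lead of at least 20 percentage points. The Δasf1 count was 91 of 335 at a common minimum of −log10 q and 133 of 328 in the upper 50% of peaks. Of these settings, background shares were counted for the common minimum only. With single libraries left out the counts ranged from 8 to 72 and from 107 to 333, of 185 to 410 regions. Without regions near ends and in the chromosome 2 window, an alternative chosen after seeing the data, 16 and 198 remained. The share of long peaks with a long counterpart (37.5%) was 0% at 10 kb, 85.3% with peaks of any length and 21.6% to 35.3% with a list left out. The share in genes ranged from 77.7% to 80.3% with a list left out. The share near ends (2.82%) was 6.06% at 10 kb, 5.50% with the rRNA gene array kept and 1.52% to 3.4% with a list left out. The ratio of long peaks ranged from 0.177 to 1.67. With a replicate block the log2 differences were 0.84, 0.28 and 0.93 (exact permutation p = 0.5, 1 and 0.5, with 0.5 the smallest possible). Deviations of same-numbered libraries correlated with r = 0.226 over 410 regions, but with 2 pairs only the number is shared. The causes of these changes were not tested. Without read counts, the limit that depth sets is unknown.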
